A study of Mus musculus with 12 samples.

Results

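Hippocampal RNA of Fn14ko mice was compared with that of MRL/+ mice, which makes 4 samples against 4, or 8 of the 12 samples of the series, chosen by the strain in the labels and not by any measured value. Fn14ko mice are MRL/MpJ mice that carry the lpr loss-of-function mutation of *Fas*, as the lupus-prone MRL/lpr strain does, and in addition a knockout of *Tnfrsf12a*, the gene of the TWEAK receptor Fn14. They were of backcross generation 8 and were bred as littermates of MRL/lpr mice at a company's facility, from which they were moved at 8 to 10 weeks of age. MRL/+ (MRL/MpJ) mice have the same MRL background with functional *Fas* and *Tnfrsf12a*, and came from another supplier. All mice of both groups were females of about 12 weeks, killed in diestrus. The groups therefore differed in 2 genes and in the source of the mice at the same time, and these cannot be told apart. The sample descriptions also mention the cortex, whereas source and tissue give the hippocampus for all 8 samples.

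TWEAK (*Tnfsf12*) is a cytokine of the TNF superfamily, and Fn14 is its receptor. Binding recruits TRAF and cIAP proteins to the receptor, and the signal passes to the canonical and alternative NF-κB pathways and to kinases such as AKT. Fas is a death receptor whose loss lets autoreactive lymphocytes survive. In MRL/lpr mice TWEAK and Fn14 are known for their part in brain inflammation, leakage of the blood-brain barrier and behavioral deficits, and the question behind this comparison is how close the hippocampal transcriptome of the Fn14-deficient lupus strain comes to that of the non-lupus background.

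Each of 4 two-color Agilent arrays took 2 mice of 1 group, the odd-numbered replicate in green (Cy3) and the even-numbered one in red (Cy5). Dye was thus balanced within each group, whereas array and slide were nested in group and cannot be told apart from it. The level of a gene is the spot signal after subtraction of the local background, divided by the median of its channel, so that 1 is the median of the valid spots. Of 43020 probe spots, 26739 were valid in all 8 channels, and these covered 24458 probes of 18578 genes. Differences are given as log2 of Fn14ko over MRL/+ with their standard error, from a limma fit of group and dye whose p-values were adjusted by Benjamini-Hochberg over 18578 genes. A gene passes the test at an adjusted p under 0.05. Levels are comparable between mice, not between genes, since each probe has its own brightness. The labels give the 8 samples as separate mice, and the precision of each difference is limited by the small number of arrays.

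The tissue was checked by markers of the hippocampal fields. Of 7 CA field markers, 4 (*Wfs1*, *Grik4*, *Rgs14* and *Neurod6*) were well above background in all 8 samples and 7 in at least 4. Of 5 dentate gyrus markers none was well above background in all 8 samples and 4 were in at least 4, while *Tdo2* was in none. Detection differed between channels. In the red channel of MRL/+ 29.6% and 31.8% of all spots were called well above background, compared with 51.5% to 68.1% in the other 6 samples. In these red MRL/+ channels, the 153 negative control spots had a median net signal of 174 and 177, compared with 54.9 and 58.5 in red Fn14ko and 5.22 to 12.08 in the green channels. Their bright spots were also dim at the first rows of the array, with a net signal of 921 and 1512 in rows 1 to 54 compared with 5072 to 9481 in rows 217 to 532. The other 6 channels varied less along the array, for example from 24854 to 27273 in Fn14ko replicate 1 and from 11475 to 15868 in Fn14ko replicate 4.

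In total, 3687 of 18578 genes (19.8%) passed the test, of which 1842 were higher (9.91%) and 1845 lower (9.93%) in Fn14ko, and 7103 had an unadjusted p under 0.05. The 4 Fn14ko samples did not overlap with the 4 MRL/+ samples in 3422 genes (18.4%), and 2497 genes met both. The share of higher genes fell along the array from 29.6% in rows 1 to 54 to 1.36% in rows 433 to 486, while that of lower genes was 5.26% in rows 1 to 54 and 15.6% in rows 487 to 532. A second set of values, chosen after this was seen, had the negative control signal subtracted in each channel and the median deviation of each area of the array removed, and is called corrected in the text below. It left 8116 genes, of which 1851 (22.8%) passed the test, 779 higher (9.6%) and 1072 lower (13.2%), with 8.62% to 13.5% higher and 10.04% to 15.3% lower in every band of rows. In both sets 1000 of the 8116 genes (12.3%) passed with the same sign, 415 higher and 585 lower, and 1 passed with opposite signs. The number that passed was 859 without Fn14ko replicate 4, 1018 without MRL/+ replicate 4, 1183 without MRL/+ replicate 2 and 1539 without Fn14ko replicate 2, and it was 1299 with the replicate number as a block, which is called the block in the text below. Of 170 genes past the test that are named in the text, 73 passed with each of the 8 samples left out in turn and 98 with the block. Most losses came with a red sample left out, namely 66 genes without Fn14ko replicate 2, 92 without Fn14ko replicate 4, 85 without MRL/+ replicate 2 and 85 without MRL/+ replicate 4, compared with 7 to 48 for the green samples.

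**Figure D1:**
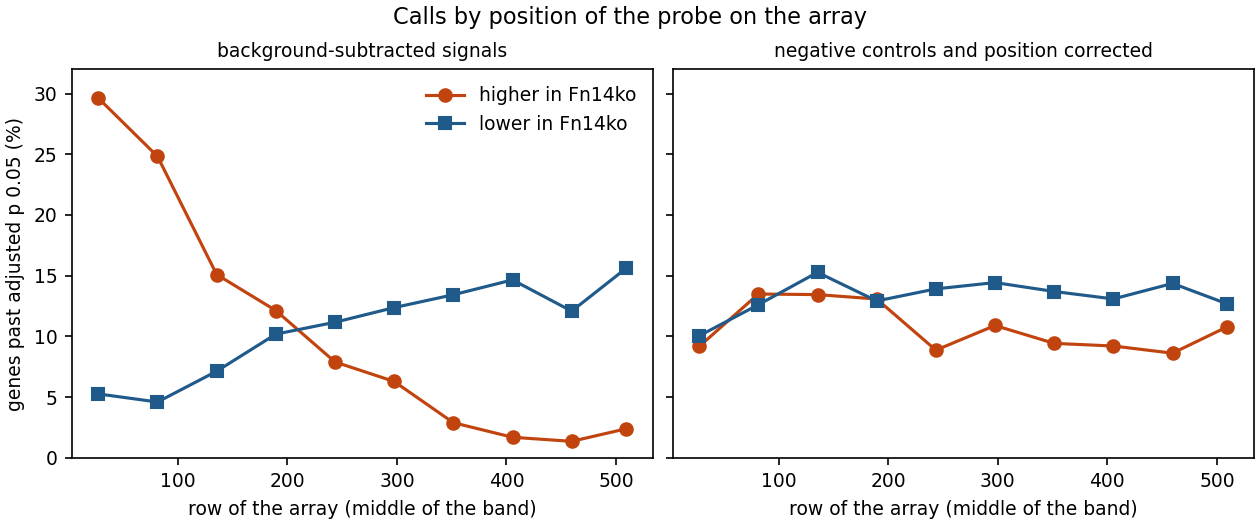
Percent of genes higher (circles) and lower (squares) in Fn14ko at a limma adjusted p under 0.05, by the row of the array on which a gene's probe lies, in 10 bands of rows. On the left, for background-subtracted signals, the higher share falls from 29.6% to 1.36%. On the right, for corrected signals, neither share exceeds 15.3% in any band.

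*Tnfrsf12a* was lower in the Fn14ko samples, although its probe still gave signal there. The level was 0.782, 0.702, 0.866 and 0.671 in Fn14ko replicates 1 to 4 and 1.21, 1.83, 2.21 and 1.67 in MRL/+ replicates 1 to 4, so that every Fn14ko sample lay below every MRL/+ sample. The log2 difference was -1.17 ± 0.20, a 2.25-fold fall, with a limma adjusted p of 0.00715 and an exact two-sided permutation p of 0.0286, the smallest that 4 against 4 mice allow. Within green samples the difference was -0.99 and within red ones -1.35, and with corrected values it was -1.10 (adjusted p = 0.00321). The only probe lies at chr17:23812746-23812805 (mm9) and was well above background in all 8 samples. Where the deleted part of the gene lies relative to this probe is not given in the sources used here, so its residual signal checks the labels only in direction.

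The ligand gene *Tnfsf12* did not pass the test, with 0.634, 0.557, 0.694 and 0.662 in Fn14ko and 0.887, 0.597, 0.931 and 0.532 in MRL/+ (-0.17 ± 0.17, adjusted p = 0.465), and its 2 probes differed in sign. *Fas* was 0.207, 0.183, 0.262 and 0.251 in Fn14ko and 0.418, 0.658, 0.214 and 0.707 in MRL/+. Its difference of -1.02 ± 0.32 just missed the threshold (limma adjusted p = 0.0519), and MRL/+ replicate 3, at 0.214, lay among the Fn14ko samples. The *Fas* spot was not well above background in red MRL/+ replicates 2 and 4, the 2 highest values.

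Of 27 measured genes of the TWEAK and Fn14 pathway, 3 passed the test (11.1%), compared with 19.8% of all genes. Apart from the receptor itself, these were *Birc2* and *Rac1*. *Birc2* encodes cIAP1, a ubiquitin ligase that binds the receptor complex and restrains alternative NF-κB signaling. Its level was 2.69, 2.495, 3.71 and 2.57 in Fn14ko and 1.80, 1.58, 1.60 and 1.51 in MRL/+, with all Fn14ko samples above all MRL/+ samples. The rise was 0.80 ± 0.15 (limma adjusted p = 0.0101) and 1.05 with corrected values, and it passed the test with each sample left out in turn. *Rac1*, a small GTPase of the actin cytoskeleton, had a difference of 0.51 (adjusted p = 0.0352), which was 0.04 with corrected values and had an adjusted p of 0.0791 with the replicate block. Its 2 probes gave 0.72 and -0.44. With corrected values, 3 of 13 pathway genes were higher and 2 lower.

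**Figure D2:**
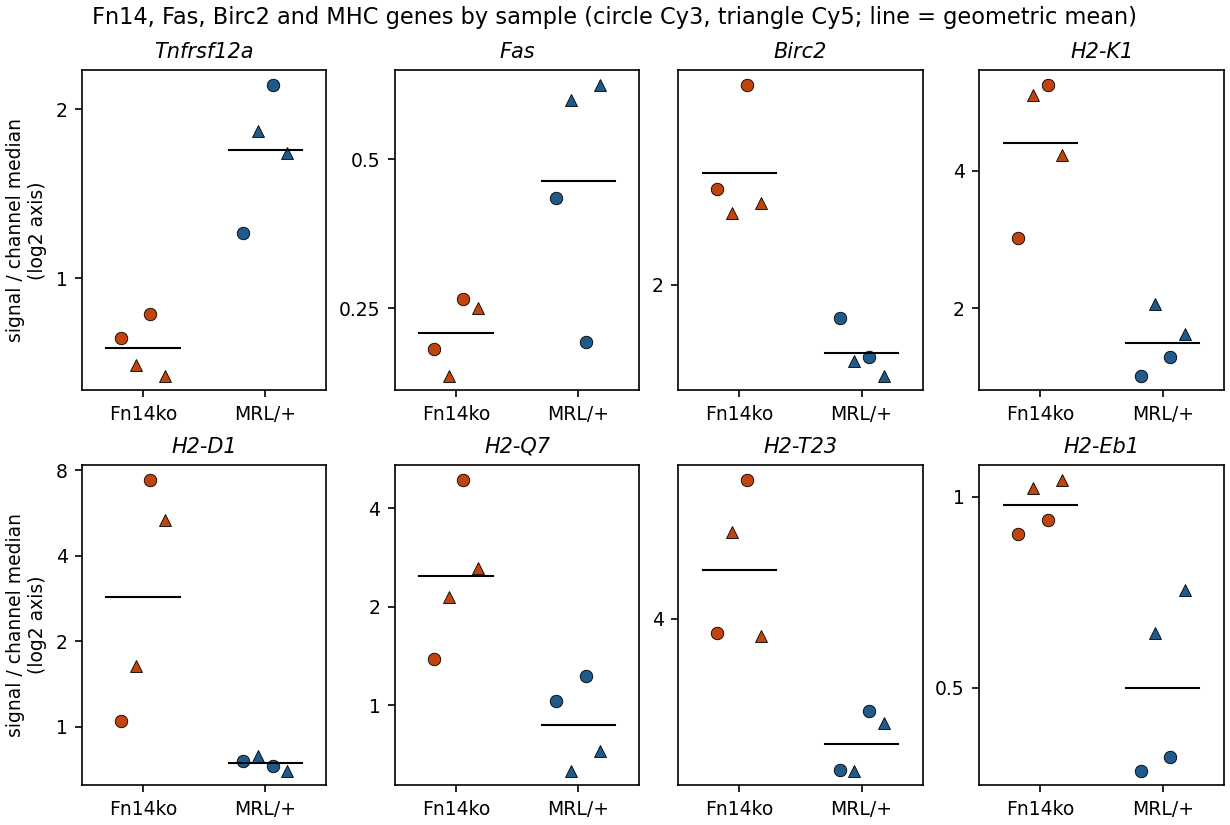
Level (signal over channel median, log2 axis of its own range in each panel) of *Tnfrsf12a*, *Fas*, *Birc2* and 5 MHC genes in each mouse, with circles for Cy3, triangles for Cy5 and a line at the geometric mean. *Tnfrsf12a* lies at 0.671 to 0.866 in Fn14ko and 1.21 to 2.21 in MRL/+, and *H2-D1* at 1.04 to 7.40 and 0.700 to 0.785.

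Of 16 measured NF-κB target genes, 3 were higher in Fn14ko and none lower, a share of 18.75% that lies near the 19.8% of all genes. *Vcam1*, the endothelial adhesion molecule through which leukocytes attach, was 1.41, 0.910, 1.32 and 1.03 in Fn14ko and 0.919, 0.389, 0.874 and 0.402 in MRL/+ (0.95 ± 0.17, adjusted p = 0.00918). The lowest Fn14ko mouse lay just below the highest MRL/+ mouse, and of its 2 probes the one in row 4 gave 1.41 and the one in row 480 gave -0.74. *Irf1*, an interferon response factor, rose by 0.81 ± 0.19 (adjusted p = 0.0194, 0.0572 with the block), and *Lcn2*, a siderophore-binding protein of reactive astrocytes, by 0.83 ± 0.23 (adjusted p = 0.0361, 0.0706 with the block). None of these 3 had enough signal for the corrected set, in which only 2 of the NF-κB targets remained and neither passed the test.

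Genes of Fas signaling and apoptosis showed 2 higher and 1 lower among 19 (15.8%). *Bcl2*, which holds mitochondria intact against apoptotic signals, was 1.14, 1.19, 1.20 and 1.29 in Fn14ko and 1.42, 2.46, 1.51 and 2.24 in MRL/+, a difference of -0.62 ± 0.16 (adjusted p = 0.0277) and of -0.59 with corrected values, which was lost without any of the 4 red samples. *Cycs* (cytochrome c) and *Apaf1*, which together form the apoptosome, were higher by 0.95 and 0.80 (adjusted p = 0.0383 and 0.0416). The 3 probes of *Cycs* differed, from 1.68 in row 23 to -0.87 in row 519. With the replicate block none of the 3 passed, at adjusted p of 0.0820, 0.0920 and 0.0636.

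In the PI3K-AKT pathway, which passes growth factor signals to survival and metabolism, 2 of 29 genes were higher and 3 lower (17.2%). *Ppp2r1a*, the scaffold subunit of the phosphatase PP2A that removes phosphate from AKT, was 16.3, 16.2, 19.9 and 13.4 in Fn14ko and 28.1, 24.3, 31.3 and 22.3 in MRL/+. The groups did not overlap, and the difference was -0.69 ± 0.14 (limma adjusted p = 0.0121) or -0.83 with corrected values, but without Fn14ko replicate 4 it did not pass. *Pik3r1*, the regulatory subunit of PI3K, was 1.04, 1.49, 0.778 and 1.14 in Fn14ko and 2.48, 2.41, 1.54 and 1.94 in MRL/+, again without overlap, with a difference of -0.92 ± 0.21 (adjusted p = 0.0171, corrected -1.20) that was lost without Fn14ko replicate 4 or MRL/+ replicate 2. *Rictor*, a subunit of the mTORC2 complex that phosphorylates AKT, fell by 0.64 (adjusted p = 0.0171, 0.0609 with the block).

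The AKT kinases shown here did not move together. *Akt1* was 29.4, 31.9, 38.4 and 37.3 in Fn14ko and 30.7, 19.5, 21.5 and 21.3 in MRL/+, higher by 0.57 ± 0.17 (adjusted p = 0.0424, 0.0933 with the block), and it was -0.29 with corrected values, so that its sign depended on the signals used. The same was seen for *Cdc37*, the HSP90 co-chaperone that stabilizes AKT, at 0.95 (adjusted p = 0.0359, 0.0854 with the block) and -0.22 corrected. *Akt2* was 5.72, 6.92, 8.57 and 6.56 in Fn14ko and 6.79, 7.29, 7.07 and 6.70 in MRL/+, and the difference of -0.02 ± 0.16 (adjusted p = 0.940) was smaller than the spread between mice. Its 4 probes ranged from -1.29 (adjusted p = 0.00189) to 0.09. With corrected values 0 of 23 pathway genes were higher and 3 lower.

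Class I molecules of the major histocompatibility complex (MHC) present peptides to CD8 T cells. Of 19 measured genes of class I presentation 4 were higher in Fn14ko and none lower, a share of 21.1% that lies near the 19.8% of all genes, and all 4 were heavy chains, *H2-K1*, *H2-D1*, *H2-Q7* and *H2-T23*. NF-κB and interferon regulatory factors are known to act on class I promoters through an adjacent pair of sites, so the 250 bases upstream of the start of the 2 classical genes are shown, from RefSeq (GRCm38.p6), with matches to GGGNNTTCC (NF-κB) and GAANNGAAA (interferon-stimulated response element) on either strand in capitals.
H2-K1, chr17:34000348-34000597, minus strand: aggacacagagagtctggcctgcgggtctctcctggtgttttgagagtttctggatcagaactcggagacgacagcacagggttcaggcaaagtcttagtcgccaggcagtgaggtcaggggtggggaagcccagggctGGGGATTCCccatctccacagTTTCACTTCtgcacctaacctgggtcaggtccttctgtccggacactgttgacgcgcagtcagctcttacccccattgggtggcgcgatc
H2-D1, chr17:35262844-35263093, plus strand: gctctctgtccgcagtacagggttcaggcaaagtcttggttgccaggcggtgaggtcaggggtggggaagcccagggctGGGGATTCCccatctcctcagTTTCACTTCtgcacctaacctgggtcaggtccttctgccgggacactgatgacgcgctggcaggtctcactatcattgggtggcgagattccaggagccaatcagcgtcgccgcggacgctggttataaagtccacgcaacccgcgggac
Counted from the start, the first motif begins at position -111 in *H2-K1* and -171 in *H2-D1*, and the second at -90 and -150. Among 27025 promoters of this length, 4.88% hold the first and 6.34% the second. A match describes the letters of this reference sequence only. The sequence of the mice measured was not available here, and differences between strains in it were not checked.

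*H2-K1* was 2.85, 5.87, 6.18 and 4.34 in Fn14ko and 1.42, 2.04, 1.56 and 1.76 in MRL/+. The lowest Fn14ko mouse was above the highest MRL/+ mouse, and the rise was 1.45 ± 0.23 (limma adjusted p = 0.00556), with 1.49 in green, 1.41 in red and 1.51 after correction. Both of its tested probes were higher, by 1.71 and 1.03. *H2-D1* was 1.04, 1.63, 7.40 and 5.35 in Fn14ko and 0.759, 0.785, 0.729 and 0.700 in MRL/+. Its Fn14ko samples formed a low pair from 1 array and a high pair from the other, which made the rise uncertain in size, at 1.95 ± 0.54 (adjusted p = 0.0343). It did not pass without Fn14ko replicate 4 or any of the 4 MRL/+ samples, and ranged from 1.39 to 2.52 with 1 sample left out. *H2-Q7*, of the class Ib group, was 1.39, 2.15, 4.90 and 2.63 in Fn14ko and 1.03, 0.632, 1.23 and 0.725 in MRL/+ (1.51 ± 0.34, adjusted p = 0.0169). *H2-T23*, which encodes Qa-1, the ligand of the NKG2A receptor, was 3.79, 5.55, 6.75 and 3.75 in Fn14ko and 2.27, 2.26, 2.83 and 2.70 in MRL/+ (0.94 ± 0.21, adjusted p = 0.0184), with a corrected rise of 0.95. *H2-T23* lost its call without Fn14ko replicate 2 or MRL/+ replicate 2, and *H2-Q7* without Fn14ko replicate 4 or either red MRL/+ sample. Class I genes are close relatives of each other, and binding of a probe to transcripts of other class I genes was not tested.

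Of 10 measured genes of class II presentation, used by CD4 T cells, 2 were higher and 1 lower (30.0%, compared with 19.8% of all genes). The beta chains *H2-Eb1* at 0.873, 1.03, 0.918 and 1.06 in Fn14ko and 0.370, 0.610, 0.389 and 0.712 in MRL/+ and *H2-Ab1* at 0.80 ± 0.19 (adjusted p = 0.0203, 0.0658 with the block) were higher. For *H2-Eb1* the groups did not overlap, and the rise was 0.95 ± 0.17 (limma adjusted p = 0.00786). *H2-DMa*, a chain of the peptide exchanger of class II, was lower, with a difference of -0.497 (adjusted p = 0.0412, 0.107 with the block).

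Of interferon-stimulated genes 2 of 30 were higher and 1 lower, with a median of -0.02 compared with -0.07 over all genes. *Ifit3*, which binds viral RNA complexes, was 1.52, 1.59, 1.51 and 1.497 in Fn14ko and 1.02, 0.913, 0.826 and 0.759 in MRL/+. Its groups did not overlap, and the rise was 0.80 ± 0.15 (limma adjusted p = 0.00899). *Igtp*, an interferon-gamma-induced GTPase, was higher by 0.89 (adjusted p = 0.0461, 0.0700 with the block).

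*Tnfrsf12a* and the MHC lie on the same chromosome, and in a backcrossed knockout the DNA around the deleted gene can come from another strain. The probes of *H2-K1*, *H2-Eb1*, *H2-D1* and *H2-T23* lie 10.3, 10.6, 11.6 and 12.35 Mb (megabases) from that of *Tnfrsf12a* in mm9. Within 20 Mb of *Tnfrsf12a*, 65 of 569 genes were higher and 62 lower (22.3%), within 10 Mb 62 of 323 passed (19.2%), and on the whole of chromosome 17 101 were higher and 101 lower of 923 (21.9%), compared with 16.96% to 22.4% on the other chromosomes. With corrected values the shares were 27.2% within 20 Mb, 22.4% within 10 Mb and 27.6% on chromosome 17, where the other chromosomes ranged from 18.0% to 24.5%. Around *Fas* on chromosome 19, 61 of 277 genes within 20 Mb passed (22.02%, corrected 22.9%). The shares over background-subtracted signals are near the 19.8% of all genes. The corrected share of chromosome 17 was the highest of the 20 chromosomes, against 22.8% of all genes, and was not tested further. The part of strain-specific sequence in any of these differences was not tested.

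**Figure D3:**
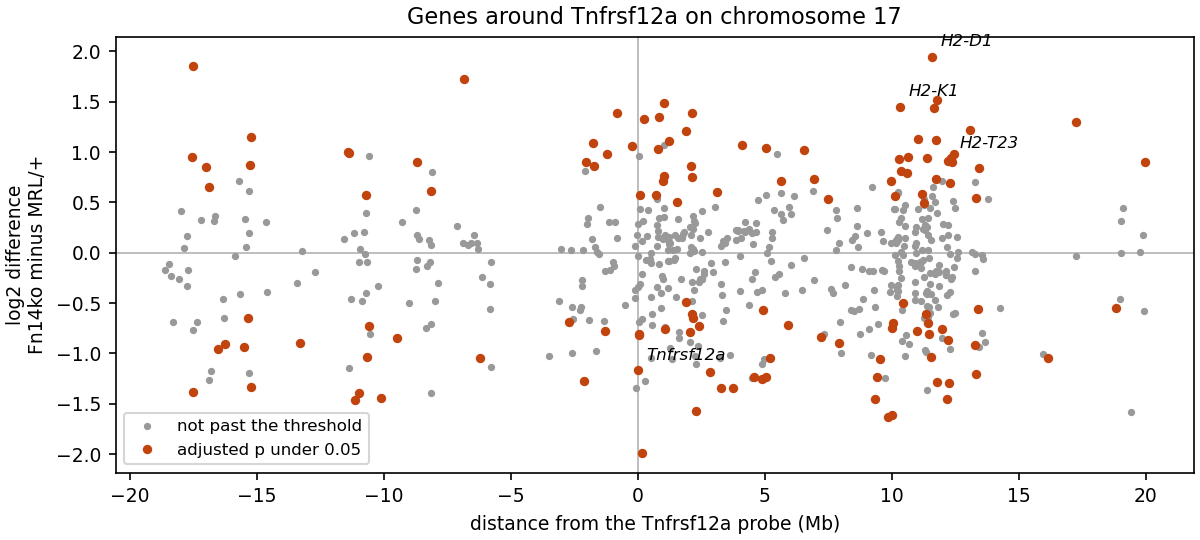
Log2 difference (Fn14ko minus MRL/+) of each tested gene within 20 Mb of the *Tnfrsf12a* probe against its distance from it, with genes past the limma threshold in red. Higher and lower genes (65 and 62 of 569) are interspersed along the whole region, and the class I genes with the largest rises lie 10.3 to 12.35 Mb away.

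Among the genes near *Tnfrsf12a*, *Srrm2*, a splicing cofactor, fell by 1.99 ± 0.24 (adjusted p = 0.00199), though of its 3 probes only the one at -2.99 passed and the other two were -0.90 and -1.06. *Ppp1r10*, a nuclear regulator of the phosphatase PP1, was 0.374, 0.396, 0.385 and 0.421 in Fn14ko and 0.974, 1.06, 0.882 and 0.953 in MRL/+ (-1.29 ± 0.14, adjusted p = 0.00161), with no overlap and a difference of -1.29 in green and -1.30 in red. *Clps*, the cofactor of pancreatic lipase, fell by 1.26 (adjusted p = 0.00263), and *Tmem181a* rose by 1.85 (adjusted p = 0.00330). Genes of this region that are described with their pathways include *Ppp2r1a* and *Grm4*, with probes at chr17:21098695-21099588 and chr17:27571527-27571586 (mm9). Near *Fas*, *Ppp1r3c*, which directs PP1 to glycogen, was 6.31, 4.85, 5.61 and 4.47 in Fn14ko and 3.61, 1.78, 3.01 and 1.71 in MRL/+ (1.13 ± 0.16, adjusted p = 0.00380), and *Htr7*, a serotonin receptor, was higher by 1.03 (adjusted p = 0.00441). The rise of *Ppp1r3c*, whose probe lies in row 85, was 0.85 in green, 1.41 in red and 0.39 corrected (limma adjusted p = 0.0414). *Htr7* was not in the corrected set.

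Synaptic genes that passed the test were mostly lower in Fn14ko. Over the lists of synaptic vesicle genes, postsynaptic genes and glutamate receptors together, 3 of 80 genes were higher and 24 lower, and with corrected values 1 of 63 was higher and 23 lower, with a median of -0.29 compared with 0.02 over all 8116 genes. Of all genes 9.91% were higher and 9.93% lower, and 9.6% and 13.2% with corrected values. All 3 higher genes (*Gria1*, *Vamp2* and *Camk2g*) have their first valid spot in rows 1 to 162 of the array, as do only 5 of the 24 lower ones. Other probes of a gene so counted can lie outside these rows. Their corrected differences were -0.16 for *Vamp2* and 0.25 for *Camk2g*, and *Gria1* was not in the corrected set. With the replicate block 0 were higher and 18 lower, and with 1 sample left out in turn 16 to 28 were lower. In bulk tissue, fewer cells of a type and less RNA per cell cannot be told apart.

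Of 28 genes of synaptic vesicles and their fusion machinery 9 were lower and 1 higher, and 9 of 24 were lower after correction (median -0.40). *Sncb*, or beta-synuclein, a presynaptic chaperone, was 3.21, 3.02, 3.58 and 2.57 in Fn14ko and 7.68, 6.58, 12.5 and 8.27 in MRL/+. The groups were far apart, with a difference of -1.47 ± 0.18 (limma adjusted p = 0.00220), -1.52 after correction and a closely similar size in either dye (-1.53 and -1.40). *Syn3*, a synapsin that tethers vesicles, was 0.464, 0.444, 0.584 and 0.431 in Fn14ko and 1.08, 2.04, 1.72 and 1.49 in MRL/+, a difference of -1.69 ± 0.21 (adjusted p = 0.00242) with -1.65 after correction. *Slc17a7*, the vesicular transporter VGLUT1 that fills vesicles with glutamate, was 16.6, 18.4, 22.8 and 16.9 in Fn14ko and 47.6, 28.9, 45.3 and 33.7 in MRL/+. It fell by 1.04 ± 0.16 (adjusted p = 0.00488, corrected -1.21). *Sv2a*, a vesicle glycoprotein, was 11.0, 13.4, 12.7 and 11.5 in Fn14ko and 18.8, 26.5, 21.0 and 23.2 in MRL/+ (-0.87 ± 0.14, adjusted p = 0.00574). *Syt4* fell by 2.82 ± 0.70 (adjusted p = 0.0239), but its Fn14ko levels spanned 0.102 to 1.76 and the call was lost without Fn14ko replicate 4 or any of the 4 MRL/+ samples. *Rims1*, *Stx1a* and *Vamp1*, of the release site, fell, with differences of -0.94, -0.63 and -0.57, and with the block their adjusted p was 0.0555, 0.0615 and 0.0680.

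Of 25 glutamate receptor genes 9 were lower and 1 higher (40.0%), and after correction 6 of 15 were lower and 1 higher. *Grm4* and *Grm2* encode metabotropic receptors that dampen glutamate release. *Grm4* was 0.375, 0.556, 0.351 and 0.440 in Fn14ko and 0.958, 1.23, 0.911 and 1.26 in MRL/+ (-1.35 ± 0.15, adjusted p = 0.00161) and *Grm2* was 1.78, 2.26, 2.15 and 1.85 in Fn14ko and 5.04, 3.92, 4.53 and 3.98 in MRL/+ (-1.12 ± 0.15, adjusted p = 0.00320). Neither overlapped between groups, and the corrected differences were -1.81 and -1.43. Subunits of the NMDA receptor were lower too. *Grin1*, the obligatory subunit, was 4.46, 4.10, 7.35 and 3.76 in Fn14ko and 10.7, 9.55, 8.50 and 15.4 in MRL/+, lower, with a difference of -1.18 ± 0.25 (adjusted p = 0.0151), and it did not pass without Fn14ko replicate 4. *Grin2b* was 1.49, 1.58, 1.18 and 1.79 in Fn14ko and 3.57, 2.64, 3.25 and 2.74 in MRL/+ (-1.02 ± 0.18, adjusted p = 0.00778), although 1 of its 2 probes gave -0.25 (adjusted p = 0.531). *Grin2a* and *Grin2d* fell, with differences of -0.93 and -1.39 (adjusted p = 0.0149 and 0.00846). Of the AMPA receptor subunits, *Gria2*, which blocks calcium entry, was 0.262, 0.406, 0.215 and 0.304 in Fn14ko and 0.521, 1.07, 0.458 and 0.950 in MRL/+ (-1.28 ± 0.19, adjusted p = 0.00459), whereas *Gria1* was 3.18, 2.38, 2.90 and 2.45 in Fn14ko and 2.32, 0.580, 2.17 and 0.693 in MRL/+, a rise of 1.18 with an adjusted p of 0.0561 with the block. *Gria2* and *Grin2d* were not in the corrected set, and in each the red MRL/+ values were the highest. The rise of *Gria1*, whose probe lies in row 38, was 0.43 in green and 1.93 in red. The delta receptor gene *Grid1* fell by 0.59, with an adjusted p of 0.0854 with the block.

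On the postsynaptic side 6 of 27 genes were lower and 1 higher (25.9%). *Nrgn*, or neurogranin, which binds calmodulin in dendritic spines, was 60.5, 91.0, 94.7 and 70.7 in Fn14ko and 113, 205, 194 and 252 in MRL/+ (-1.23 ± 0.22, adjusted p = 0.00877, corrected -1.41). The scaffold genes *Shank1* and *Homer3* and the adhesion molecule gene *Nlgn3* fell, with differences of -1.16, -1.13 and -0.97 (adjusted p = 0.00547, 0.00391 and 0.00833). *Nlgn3* had the same size with both of its probes (-0.9999 and -0.9896), while 1 of the 4 *Shank1* probes gave -0.33 (adjusted p = 0.481). *Homer3* was not in the corrected set, and its red MRL/+ values were the highest.

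**Figure D4:**
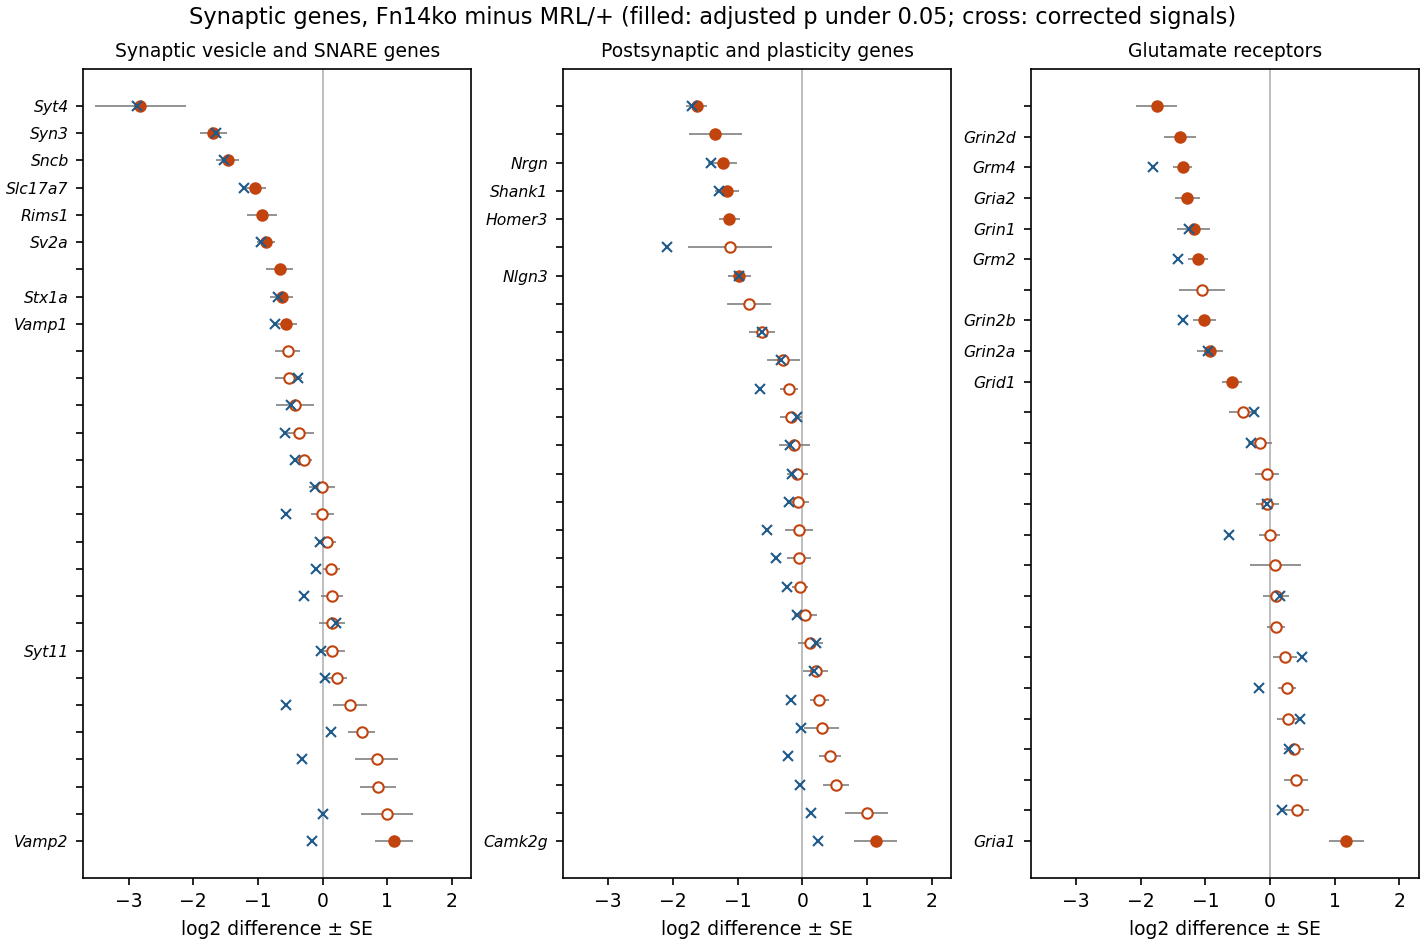
Log2 difference ± SE (Fn14ko minus MRL/+) of each tested gene of 3 synaptic lists, filled where the limma adjusted p is under 0.05, with crosses for corrected values where a gene has them and names for the genes named in the text. Of the 80 genes, 24 filled points lie below 0 and 3 above it, and the crosses of *Vamp2* and *Camk2g* lie at -0.16 and 0.25.

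In inhibitory transmission, of 16 GABA receptor genes 3 were lower and none higher, *Gabbr1*, *Gabbr2* and *Gabra4* (-0.56, -0.72 and -0.74), and with the block none of them passed (adjusted p = 0.0680, 0.0808 and 0.102). *Gabbr1*, a subunit of the metabotropic GABA-B receptor, had all 3 probes lower (-1.53, -1.04 and -0.43). Of 24 genes of GABAergic interneurons 5 were lower and 1 higher. *Lhx6*, the transcription factor of interneurons from the medial ganglionic eminence, was 6.56, 8.43, 8.77 and 8.26 in Fn14ko and 11.4, 16.6, 11.9 and 17.5 in MRL/+ (-0.83 ± 0.15, adjusted p = 0.00967, corrected -0.94), with no overlap, but its other probe gave -0.03. *Npy*, a neuropeptide, was 13.5, 15.7, 14.0 and 12.3 in Fn14ko and 20.1, 20.3, 24.3 and 19.6 in MRL/+, lower, with a difference of -0.60 ± 0.14 (adjusted p = 0.0203, 0.0512 with the block). *Reln*, *Htr3a* and *Dlx5* fell, with differences of -0.98, -0.98 and -1.67, *Reln* with an adjusted p of 0.0533 with the block. *Slc32a1*, the vesicular GABA transporter, was higher by 1.09 (adjusted p = 0.0230, 0.0636 with the block), with 0.36 in green, 1.81 in red and 0.44 corrected. Its 2 probes had opposite signs, at 1.17 in row 55 and -0.82 in row 499.

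Modulatory systems moved in both directions. In the cholinergic list 4 of 14 genes were lower and none higher (28.6%). *Chrna2*, a nicotinic receptor subunit of hippocampal oriens interneurons, was 0.892, 1.13, 0.908 and 0.884 in Fn14ko and 1.98, 2.02, 2.31 and 3.79 in MRL/+, a difference of -1.36 ± 0.21 (limma adjusted p = 0.00466) and -1.43 corrected. The muscarinic receptors *Chrm2*, *Chrm3* and *Chrm4* fell, with differences of -0.87, -0.85 and -1.51, and none passed with the block (adjusted p = 0.0933, 0.0512 and 0.102). Of 17 dopaminergic genes 3 were higher (*Maob*, *Gnas* and *Ppp1r1b*, by 0.95, 0.52 and 1.56) and 1 lower (*Kcnj6*, the potassium channel GIRK2, -1.58 ± 0.24, adjusted p = 0.00491), and 0 of 8 passed with corrected values. Of 11 serotonergic genes 3 were higher and 4 lower (63.6%, compared with 19.8% of all genes), and none of the 11 was bright enough for the corrected set. *Htr7*, *Htr2c* and *Maob*, the last an enzyme of amine breakdown, were higher by 1.03, 0.96 and 0.95. The 2 probes of *Htr2c* gave 1.39 and -1.06. The receptor genes *Htr2a*, *Htr3a* and *Htr6* and *Tph2*, which encodes the enzyme of neuronal serotonin synthesis, were lower, with differences of -1.09, -0.98, -1.32 and -1.62, and with the block *Htr7* and *Htr3a* alone passed.

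Of 74 genes of ribosomal proteins 27 were higher and none lower (36.5%), with a median of 0.37, but 19 of these 27 have their first valid spot in rows 1 to 162. With corrected values only 3 of 73 were higher and the median was 0.09. With the replicate block 12 were higher. *Rps21* was 20.4, 13.8, 25.7 and 19.2 in Fn14ko and 6.12, 1.75, 10.7 and 3.02 in MRL/+. It rose by 2.16 ± 0.32 (limma adjusted p = 0.00390) and by 1.41 with corrected values (adjusted p = 0.00875). *Rpl35* was higher by 1.09 ± 0.17 (adjusted p = 0.00525) and by 0.27 with corrected values (adjusted p = 0.195).

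The respiratory chain gave 8 of 60 genes higher and none lower (13.3%), 6 of the 8 with their first valid spot in rows 1 to 162, and 2 higher and 2 lower of 60 after correction, with a median of -0.02. *Atp5a1*, a subunit of the ATP synthase, was 33.0, 29.1, 38.5 and 29.9 in Fn14ko and 24.98, 2.97, 25.02 and 3.75 in MRL/+, with the 2 red MRL/+ samples far below the other 6. The difference of 1.83 (adjusted p = 0.0215) was 0.51 in green, 3.15 in red and 0.45 corrected, and it had an adjusted p of 0.0586 with the block. *Uqcrb* was higher by 0.75 (adjusted p = 0.0203, 0.0503 with the block) and by 0.20 corrected.

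Among genes with a symbol whose groups did not overlap, the largest falls were in *Mgst3*, *Snd1*, *Pfn1*, *Rsl24d1* and *Kctd6*. *Mgst3*, a microsomal glutathione S-transferase, was 1.10, 1.26, 0.127 and 0.332 in Fn14ko and 5.30, 7.74, 6.78 and 6.60 in MRL/+, and both of its probes were lower (-3.63 and -3.92). Fn14ko replicates 3 and 4, which share an array, were lower than replicates 1 and 2, and every Fn14ko mouse lay below every MRL/+ mouse, with a difference of -3.73 ± 0.60 (limma adjusted p = 0.00581). *Pfn1*, the actin-binding profilin, was 1.54, 1.47, 0.100 and 0.338 in Fn14ko and 7.88, 3.86, 6.79 and 4.81 in MRL/+, *Snd1*, a nuclease of the RNA-induced silencing complex, was 0.212, 0.240, 0.0498 and 0.147 in Fn14ko and 1.04, 2.09, 1.32 and 2.054 in MRL/+, and *Kctd6* was 0.675, 0.923, 0.0548 and 0.353 in Fn14ko and 2.44, 2.71, 2.67 and 2.55 in MRL/+. In all 3, Fn14ko replicate 3 was the lowest sample, and the differences were -3.42 ± 0.77, -3.49 ± 0.38 and -2.97 ± 0.67 (adjusted p = 0.0174, 0.00161 and 0.0183). *Pfn1* lost its call without Fn14ko replicate 4 or MRL/+ replicate 4, and *Kctd6* without Fn14ko replicate 4 or MRL/+ replicate 2. This sample stood apart in other genes as well, since 247 genes were over 2 log2 units lower in Fn14ko replicate 3 than in replicate 1 and 29 higher, whereas in the other same-dye pairs at most 10 genes were so much lower and 5 higher. *Rsl24d1*, a factor of ribosome assembly, fell by 3.20 ± 0.29 (adjusted p = 0.00122).

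Large rises were also measured in *Cfap300*, a cilia gene, at 2.23 ± 0.39 with 1.29 in green and 3.17 in red, and in *Tmem181a*, at 1.85 ± 0.26. Neither was in the corrected set.

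In 108 genes (0.581%) the difference passed the test in all of 22 alternative analyses with the limma test and both dyes, 69 higher and 39 lower, and the smallest of these differences was 0.74 in size. The 22 include the corrected values, so genes outside the 8116 with such values, among them *Snd1* and *Ppp1r10*, could not be counted. The fit without the dye covariate was not among the 22, whereas the fit with no filter was. That fit shifted the log2 differences of the shared genes by a median of 0.63, toward higher in Fn14ko. In both the background-subtracted and the corrected values, 415 genes passed as higher and 585 as lower. How far the fit with no filter set the balance among the 108 genes was not tested. Of the 108 genes 69 have a gene symbol, 36 higher and 33 lower. Among the lower ones, *Syt10*, a calcium sensor of secretory vesicles, was 1.29, 1.86, 0.983 and 1.54 in Fn14ko and 3.88, 8.84, 5.53 and 11.3 in MRL/+ (-2.300 ± 0.19, adjusted p = 0.00120). *Apobec3*, a deaminase that restricts retroviruses, was 4.58, 5.69, 4.54 and 4.37 in Fn14ko and 12.6, 18.9, 13.8 and 19.4 in MRL/+ (-1.74 ± 0.15, adjusted p = 0.00120). *Baiap2l2*, of the membrane-bending BAR domain family, was 8.71, 12.02, 10.5 and 10.7 in Fn14ko and 26.0, 44.0, 26.9 and 39.8 in MRL/+ (-1.68 ± 0.15, adjusted p = 0.00120). The groups were widely separated in each. *Mpeg1*, or perforin-2, a pore-forming protein of microglia and macrophages, was 0.882, 0.791, 0.980 and 1.20 in Fn14ko and 1.96, 2.78, 2.60 and 2.37 in MRL/+, a difference of -1.34 ± 0.18 (adjusted p = 0.00273). *Scfd2*, *Olfm2*, *Dvl3*, *Mpp2*, *Ap2a2* and *Ywhaz* fell, with differences of -2.11, -1.86, -1.55, -1.53, -2.34 and -1.85. *Mpp2* is a postsynaptic scaffold, *Ap2a2* a subunit of the clathrin adaptor and *Ywhaz* a 14-3-3 protein.

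The higher ones in all 22 analyses included *H2-K1* and *Birc2*, described above, and genes of several functions. *Il18*, an interleukin activated by the inflammasome, was 3.48, 3.17, 3.53 and 3.32 in Fn14ko and 2.25, 1.54, 1.48 and 1.65 in MRL/+ (0.99 ± 0.16, adjusted p = 0.00585). *Cebpd*, a transcription factor of the acute phase response, was 4.16, 5.15, 4.53 and 4.55 in Fn14ko and 3.20, 1.99, 2.11 and 2.42 in MRL/+ (0.94 ± 0.18, adjusted p = 0.0104). In neither did the groups overlap, and the corrected rises were 0.48 and 0.96. *Gadd45g*, a stress-inducible growth arrest gene, rose by 1.28 ± 0.24, *F3*, or tissue factor, by 1.00 ± 0.15, and *Itih3*, an extracellular matrix stabilizer, by 1.495 ± 0.23, and the corrected rises were smaller, at 0.67, 0.55 and 1.31. Of the 2 *F3* probes, the one in row 461 gave 0.32 (adjusted p = 0.172).

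Astrocyte markers were higher in part. Of 21 genes 6 rose and none fell (28.6%), but with corrected values 2 rose and 2 fell of 18, and the summed level of the list was 495 to 546 in Fn14ko and 439 to 596 in MRL/+, so that the groups overlapped. *Vim*, or vimentin, an intermediate filament of reactive astrocytes and vessels, was 11.0, 8.74, 10.5 and 10.6 in Fn14ko and 5.63, 5.90, 5.21 and 5.61 in MRL/+. Every Fn14ko mouse was higher, by 0.87 ± 0.14 (limma adjusted p = 0.00563) and 0.81 corrected (adjusted p = 0.00186). *Gjb6*, the gap junction protein connexin 30, was 18.6, 11.8, 15.7 and 14.2 in Fn14ko and 7.98, 5.48, 5.13 and 8.10 in MRL/+ (1.19 ± 0.20, adjusted p = 0.00726, corrected 0.70). *Gfap*, the classical filament of astrocytes, was 5.92, 2.93, 3.66 and 3.13 in Fn14ko and 3.13, 0.916, 3.02 and 1.29 in MRL/+. Its groups overlapped, its 3 probes gave 1.83 in row 41, 0.53 in row 75 and 0.29 in row 452, and its rise of 1.04 ± 0.23 (adjusted p = 0.0174) was lost without any of the 4 red samples. *Fgfr3*, a growth factor receptor of astrocytes, was higher by 1.09 (adjusted p = 0.0170, 0.0512 with the block). Its 2 probes had opposite signs, at 1.51 in row 31 and -1.03 in row 146.

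Of 24 genes of oligodendrocytes and myelin 6 were higher and none lower, and 2 higher and 1 lower of 16 after correction. *Gsn*, or gelsolin, an actin-severing protein, was 6.19, 4.52, 7.07 and 4.76 in Fn14ko and 3.81, 2.08, 3.89 and 2.94 in MRL/+ (0.85 ± 0.15, adjusted p = 0.00884), without overlap and with a corrected rise of 0.74. *Mal*, a proteolipid of compact myelin, was 19.1, 14.1, 22.98 and 10.6 in Fn14ko and 11.3, 4.13, 10.3 and 7.19 in MRL/+ (1.06 ± 0.20, adjusted p = 0.00936), with a corrected difference of 0.62 (adjusted p = 0.0745). Of the genes of precursor cells, *Pdgfra* and *Gpr17* were higher by 0.53 and 1.18 (adjusted p = 0.0324 and 0.0158), the former with an adjusted p of 0.0804 with the block. The summed level of the list was 149 to 233 in Fn14ko and 138 to 209 in MRL/+.

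In the vessel wall, 7 of 22 endothelial and pericyte genes were higher and 4 lower, and 2 were higher and 2 lower of 13 after correction. Their summed level was 115 to 153 in Fn14ko and 75.3 to 102 in MRL/+, without overlap, but over the 13 genes with corrected values the sums overlapped, at 18.4 to 22.3 and 14.1 to 18.6. *Kdr*, the VEGF receptor 2, was 2.57, 3.10, 2.48 and 2.31 in Fn14ko and 3.82, 6.18, 5.48 and 6.73 in MRL/+. It fell by 1.06 ± 0.18 (limma adjusted p = 0.00663) with a corrected difference of -1.18, although its probe in row 29 gave 0.01. *Esam*, an adhesion molecule of endothelial junctions, was 1.98, 2.37, 3.77 and 2.27 in Fn14ko and 1.61, 0.640, 1.29 and 0.578 in MRL/+ (1.42 ± 0.26, adjusted p = 0.00882), with no overlap. *Rgs5*, a marker of pericytes, was higher by 1.93 (adjusted p = 0.0137), with 0.88 in green and 2.98 in red. Its probe lies in row 8, it has no corrected value, and its call was lost without MRL/+ replicate 4. *Eng*, *Pecam1* and *Ocln* (endoglin, CD31 and the tight junction protein occludin) fell, with differences of -0.76, -0.76 and -1.27, and none of the 3 passed with the block (adjusted p = 0.0624, 0.102 and 0.0898). Of the 7 rises, 6 have their first valid spot in rows 1 to 162.

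Markers of immune cells passed the test in shares on both sides of the 19.8% of all genes. Of 21 microglia markers 1 rose and 1 fell (9.52%), and their summed level was 74.7 to 87.8 in Fn14ko and 71.6 to 86.6 in MRL/+. *Siglech*, a microglial lectin, was 7.76, 8.98, 14.9 and 12.8 in Fn14ko and 3.62, 4.51, 5.91 and 8.28 in MRL/+ (1.01 ± 0.28, adjusted p = 0.0348), 1 of its 3 probes gave -0.42, and the call was lost without Fn14ko replicate 4 or MRL/+ replicate 1 or 2. *Fcgr3*, an Fc receptor, fell by 0.54 (adjusted p = 0.0360, 0.105 with the block). T cell markers were lower in 4 of 14 genes (28.6%) and higher in none. *Cd4* was 4.79, 6.78, 5.04 and 6.95 in Fn14ko and 10.1, 10.5, 12.3 and 16.9 in MRL/+. This co-receptor of helper T cells, also found on microglia and macrophages, was lower in every Fn14ko mouse, with a difference of -1.07 ± 0.17 (limma adjusted p = 0.00595) and -1.44 corrected. *Cd3e*, the signaling chain of the T cell receptor complex, was 0.471, 0.465, 0.364 and 0.380 in Fn14ko and 0.568, 1.12, 0.832 and 1.09 in MRL/+ (-1.06 ± 0.21, adjusted p = 0.0117). *Cd5* and *Cd8b1* were lower, with differences of -0.90 and -1.26 (adjusted p with the block 0.0638 and 0.160). *Cd79a*, of the B cell receptor, was lower, with a difference of -0.88 (adjusted p = 0.0211, 0.0768 with the block) among 9 B cell genes. Except for *Cd4*, none of these lymphocyte genes was bright enough for the corrected set, and the 2 highest values of each of these other 4 genes were in red MRL/+. The summed level of the T cell list was 9.04 to 11.9 in Fn14ko and 15.3 to 24.7 in MRL/+, and 3 of its 22 genes on the array were well above background in no sample. *Cd4* alone made up most of each sum, at 4.79 to 6.95 in Fn14ko and 10.1 to 16.9 in MRL/+.

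Of 16 complement genes 2 were higher and 2 lower. *C1qc*, a chain of the first component that tags synapses, was 3.36, 2.92, 3.02 and 2.55 in Fn14ko and 5.04, 4.34, 4.63 and 4.96 in MRL/+. The groups did not overlap, and the difference was -0.68 ± 0.14 (limma adjusted p = 0.0130) and -0.77 corrected, with the call lost without Fn14ko replicate 4 or MRL/+ replicate 4. *C4b*, the fourth component, was 3.36, 1.77, 3.94 and 4.05 in Fn14ko and 0.951, 1.93, 1.34 and 1.66 in MRL/+, with 3 of 4 Fn14ko mice above all MRL/+ mice, and the difference was 1.13 ± 0.30 (adjusted p = 0.0304, 0.0612 with the block) and 1.36 corrected (adjusted p = 0.0115). It passed without Fn14ko replicate 2 or 3 only. *Serping1*, the C1 inhibitor, and *Masp1*, a protease of the lectin pathway, changed by 0.66 and -1.58 and did not pass with the block (adjusted p = 0.0653 and 0.146). Of 19 chemokine genes and receptors *Cxcl11* and *Cx3cl1* were higher, by 0.79 and 1.03, and *Ccr6* was lower, with a difference of -0.65. The corrected differences of the first pair were 0.14 and -0.11.

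Among markers of regions outside the hippocampus, the list for the striatum held the most rises. Of its 18 measured genes 7 were higher and none lower (38.9%), with a median of 0.80, and 4 higher and 1 lower of 10 after correction (median 0.58). *Penk*, the enkephalin precursor, was 19.1, 34.5, 41.7 and 14.99 in Fn14ko and 11.0, 7.40, 11.3 and 7.16 in MRL/+. All Fn14ko mice lay above all MRL/+ mice, with wide spread, and the rise was 1.49 ± 0.29 (limma adjusted p = 0.0113), 1.12 corrected. *Rgs9*, a regulator of dopamine receptor signaling, was 3.11, 6.21, 11.1 and 2.44 in Fn14ko and 1.16, 1.96, 0.970 and 1.24 in MRL/+ (1.89 ± 0.44, adjusted p = 0.0193), and *Gng7*, a G protein subunit of striatal neurons, was 6.03, 6.296, 14.7 and 8.03 in Fn14ko and 3.78, 3.16, 3.73 and 4.40 in MRL/+ (1.13 ± 0.26, adjusted p = 0.0199). In both, Fn14ko replicate 3 was the highest sample. *Tac1*, the substance P precursor, rose by 2.00 ± 0.41 and *Ppp1r1b*, or DARPP-32, by 1.56 ± 0.33 (adjusted p = 0.0133 and 0.0150), the latter 0.21 corrected. The groups overlapped in both. For *Tac1*, Fn14ko replicate 4 was at 1.36, below MRL/+ replicates 1 and 3 at 1.52 and 1.45. The *Tac1* probe lies in row 41, and the gene has no corrected value. *Syndig1l* rose by 1.42, with an adjusted p of 0.0662 with the block. *Gng7* lost its call without Fn14ko replicate 4 or MRL/+ replicate 2, *Rgs9* without Fn14ko replicate 2 or MRL/+ replicate 4, and *Ppp1r1b* without Fn14ko replicate 4 or either red MRL/+ sample. The 2 probes of *Gng7* gave 1.24 and -1.25, and 1 of the 3 probes of *Rgs9* gave -0.11. The summed level of the list was 103, 147, 210 and 103 in Fn14ko and 88.7, 59.9, 80.5 and 59.2 in MRL/+, without overlap. Over its 10 genes with corrected values the sums overlapped, at 17.03 to 33.6 in Fn14ko and 14.6 to 17.4 in MRL/+. Its part in the other differences was not tested.

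Markers of other neighboring regions were checked in the same way. Choroid plexus markers gave 0 calls of 17 and ependymal markers 0 of 10 in limma at an adjusted p under 0.05 (0 and 0 at an unadjusted p under 0.05), and the 2 choroid plexus genes of the corrected set did not pass there either. *Ttr*, the transthyretin of the choroid plexus, was 20.4, 2.92, 2.87 and 1.32 in Fn14ko and 4.00, 4.36, 3.32 and 3.32 in MRL/+, so that Fn14ko replicate 1 held far more than the other 7 mice, and the difference was 0.06 ± 0.60 (adjusted p = 0.950). Without that replicate it was -0.71 (adjusted p = 0.100). CA field markers were higher in 4 of 18 genes and lower in 1, and their summed level of 105 to 139 in Fn14ko and 72.9 to 104 in MRL/+ did not overlap. After correction 1 of 9 was higher and none lower, and the sums overlapped, at 19.2 to 24.98 in Fn14ko and 18.6 to 20.8 in MRL/+. The 5 genes that passed before correction were *Wfs1*, *Bok*, *Cpne7* and *Crym*, higher by 0.57, 1.04, 0.63 and 1.24, and the lower *Nr3c2*, of which *Bok* alone passed with the block. Dentate gyrus markers were lower in 2 of 11 genes, *C1ql2* (-0.94) and *Npnt* (-2.08), with an adjusted p of 0.117 with the block for the former. Neither of these was in the corrected set, and both had their highest values in red MRL/+. After correction 2 of 5 dentate markers were higher and none lower, with a median of 0.15. Thalamic markers were lower in 3 of 17 (*Tcf7l2*, *Cit* and *Lef1*) and higher in 1 (*Adarb1*), and *Tcf7l2*, a transcription factor of thalamic neurons, was 0.203, 0.234, 0.220 and 0.229 in Fn14ko and 0.599, 0.867, 0.578 and 0.887 in MRL/+ (-1.70 ± 0.18, adjusted p = 0.00135). Hypothalamic peptides were higher in 3 of 18 (*Crh*, *Hap1* and *Scg2*, by 0.86, 1.01 and 0.73) and lower in 1 (*Npy*), a share of 22.2%. The summed level of the list was 173, 79.2, 53.6 and 64.1 in Fn14ko and 51.6 to 62.3 in MRL/+, so that Fn14ko replicate 1 stood apart. Over its 7 genes with corrected values the sums were 19.6, 13.9, 9.79 and 12.2 in Fn14ko and 11.2 to 14.2 in MRL/+. The 2 probes of *Hap1* gave 1.05 and -0.95. Of 9 hemoglobin and erythroid genes *Hbb-b1* fell by 1.69 ± 0.34 (adjusted p = 0.0121) and *Fech* rose by 0.61, and the summed level of these blood genes was 128 to 415 in Fn14ko and 151 to 226 in MRL/+. Of other lists, 4 of 21 cortex layer markers were higher and 4 lower (38.1%), and 4 of 20 genes of meninges and collagens were higher and 2 lower (30.0%). Chaperone genes were higher in 5 of 29 and lower in 1 (20.7%), and in 1 and 2 of 21 after correction. Among genes of neurogenesis 1 of 16 was higher (6.25%), and 1 of 19 genes of the TNF superfamily was lower (5.26%). Of 13 genes known to vary between mouse strains 1 was higher and 3 lower (30.8%). Of all genes 19.8% passed.

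**Figure D5:**
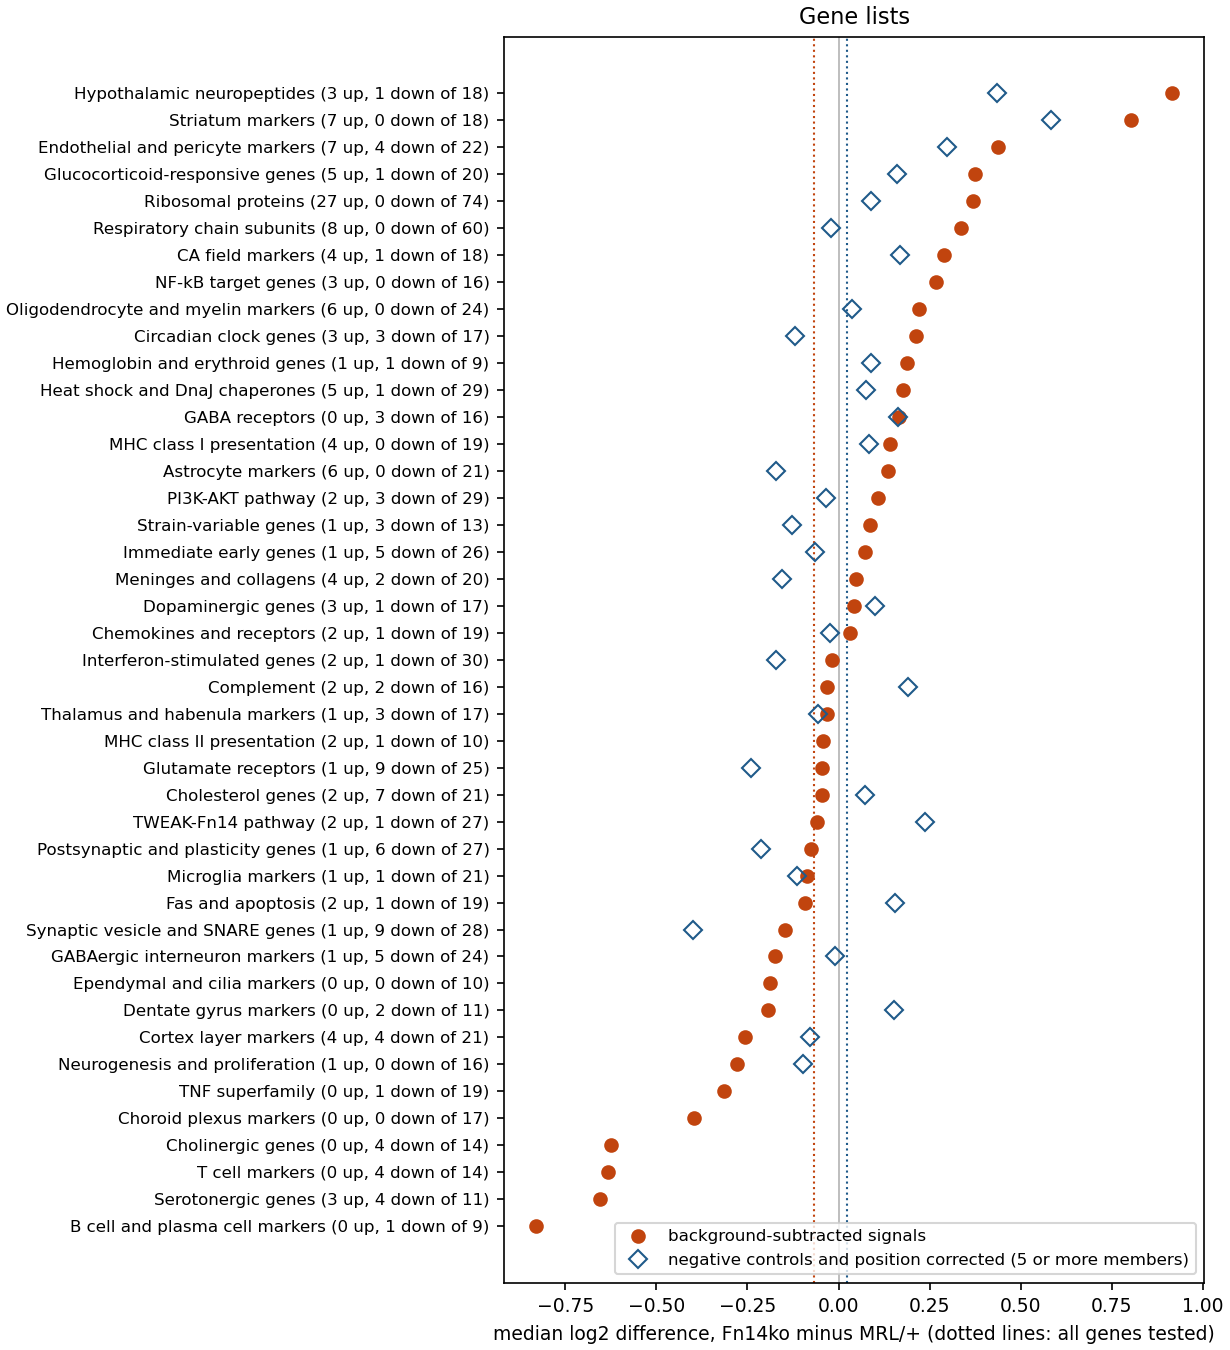
Median log2 difference (Fn14ko minus MRL/+) of the members of each gene list, as filled circles for background-subtracted signals and open diamonds for corrected signals where at least 5 members remained, with the numbers of genes past the threshold beside each name. Dotted lines mark the medians of all genes, -0.07 and 0.02. Ribosomal proteins move from 0.37 to 0.09 with correction, whereas synaptic vesicle genes lie at -0.15 and -0.40.

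Cholesterol genes were lower in 7 of 21 and higher in 2 (42.9%, compared with 19.8% of all genes). After correction they were lower in 3 and higher in 2 of 12 (41.7%, compared with 22.8%). *Cyp46a1*, the hydroxylase by which neurons remove cholesterol, was 1.45, 1.39, 1.92 and 1.46 in Fn14ko and 5.02, 3.53, 5.63 and 4.64 in MRL/+. It fell by 1.59 ± 0.16 (limma adjusted p = 0.00135), with -1.67 in green, -1.51 in red and -1.73 corrected. Of the enzymes of synthesis, *Sc5d* was 1.57, 1.60, 1.16 and 1.22 in Fn14ko and 2.299, 3.99, 2.67 and 3.54 in MRL/+ (-1.15 ± 0.19, adjusted p = 0.00569) and *Acat2* fell by 1.03 (adjusted p = 0.00658), whereas *Sqle* rose by 0.64 (adjusted p = 0.0229, 0.0616 with the block). The regulators *Srebf2*, *Srebf1* and *Insig1* fell, with differences of -0.80, -1.69 and -1.88. For *Insig1* the difference was -1.35 in green and -2.40 in red.

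Genes induced by glucocorticoids were higher in 5 of 20 and lower in 1 (30.0%), and higher in 2 of 14 after correction. *Sgk1*, a kinase induced by corticosteroids, was 11.4, 14.2, 11.8 and 12.7 in Fn14ko and 8.53, 5.35, 5.73 and 5.99 in MRL/+ (0.99 ± 0.18, adjusted p = 0.00850). The groups did not overlap, and the corrected rise was 0.74. *Errfi1*, an inhibitor of the EGF receptor, rose by 0.67 (adjusted p = 0.0193, 0.0613 with the block) and by 0.73 corrected. *Arrdc2*, of the arrestin family, rose by 0.80 (adjusted p = 0.0202). Of the receptors themselves, *Nr3c1* was higher by 1.08 and *Nr3c2* lower, with a difference of -1.21. With the block neither passed (adjusted p = 0.0945 and 0.158). The 2 probes of *Nr3c1* had opposite signs, at 1.385 in row 33 and -1.004 in row 219. Of 26 immediate early genes, which follow neuronal activity, 5 were lower and 1 higher (23.1%). *Ier2* was 0.127, 0.165, 0.0536 and 0.164 in Fn14ko and 0.423, 0.729, 0.640 and 0.4997 in MRL/+, a difference of -2.27 ± 0.33 (adjusted p = 0.00389), *Dusp1*, a phosphatase of MAP kinases, fell by 1.18, and *Fosb*, *Junb* and *Nptx2* fell, with differences of -0.78, -0.92 and -0.501, all 4 with an adjusted p of 0.0765 to 0.0922 with the block. *Fosl2* was higher by 1.07.

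Clock genes were higher in 3 of 17 and lower in 3 (35.3%, compared with 19.8% of all genes). *Nr1d1* (REV-ERB alpha), a repressor of *Bmal1*, was 2.07, 1.74, 4.06 and 1.88 in Fn14ko and 4.95, 5.53, 7.16 and 4.38 in MRL/+ (-1.24 ± 0.23, adjusted p = 0.00987, corrected -1.17), and *Per2*, of the repressing arm of the clock, was 1.36, 1.15, 1.77 and 0.976 in Fn14ko and 0.811, 0.575, 1.03 and 0.564 in MRL/+ (0.83 ± 0.16, adjusted p = 0.0108). *Nr1d1* was lower in all Fn14ko mice and *Per2* overlapped. *Rorb* fell by 0.87 (adjusted p = 0.0116, corrected -1.20), and its 2 probes gave -1.15 and 0.35. *Cry2* and *Tef* rose by 1.40 and 0.53 and *Bhlhe41* fell by 1.10, and none of the 3 passed with the block (adjusted p = 0.0623, 0.0684 and 0.0833). The 2 probes of *Cry2* gave 1.58 and -0.51. The time of day at which the mice were killed is not given in the sources used here.

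Several other genes did not pass the test between these groups. *Syne2*, of the nuclear envelope, was 0.577, 0.672, 0.910 and 0.787 in Fn14ko and 0.611, 0.879, 0.629 and 0.804 in MRL/+ (0.01 ± 0.19, adjusted p = 0.979), and its 2 probes gave -1.13 and 0.16. *Syt11*, a synaptotagmin of vesicle recycling, was 21.5, 24.2, 29.8 and 27.8 in Fn14ko and 25.2, 15.4, 29.4 and 25 in MRL/+ (0.15 ± 0.20, adjusted p = 0.595). *Glo1*, a detoxifying enzyme on chromosome 17, was 16.2, 13.8, 13.2 and 12.7 in Fn14ko and 16.3, 4.57, 16.2 and 5.72 in MRL/+ (0.61 ± 0.28, adjusted p = 0.137), with the 2 lowest values in red MRL/+. *Dnajc28*, a DnaJ chaperone, was 0.138, 0.137, 0.135 and 0.128 in Fn14ko and 0.140, 0.366, 0.147 and 0.304 in MRL/+. Its groups did not overlap, but the difference of -0.70 ± 0.32 did not pass the test (limma adjusted p = 0.135) and was -0.07 in green and -1.33 in red. A miss of the threshold does not show that the levels are equal.

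Very few genes were detected in 1 group only. By the scanner's call, 4 were well above background in 4 of 4 Fn14ko and 0 of 4 MRL/+ samples, and 0 the other way. The only one with a symbol, *Mamdc2*, was 0.316, 0.288, 0.229 and 0.293 in Fn14ko and 0.0199, 0.436, 0.0334 and 0.414 in MRL/+, so that its groups overlapped and the 2 red MRL/+ samples were the highest. In green samples alone, 153 genes were detected in Fn14ko only and 143 in MRL/+ only.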

How the data were processed

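RNA of each hippocampus was labeled with Cy3 or Cy5 and hybridized to Agilent 60-base two-color arrays, which the authors scanned and read with Agilent Feature Extraction 12.1. The deposited values are spot intensities and local background intensities per channel, not yet normalized. Spots under 2 times background or with an outlier mark in any of the 8 channels of the 2 groups were left out, the median background was subtracted from the mean signal, and each channel was divided by its median. Linear values were averaged over the spots of each probe and then over the probes of each gene. MRL/lpr arrays were not used here. Log2 values were fitted with limma 3.58.1 (eBayes with trend, group and dye) in R 4.3.3 with statmod 1.5.0, and summarized in Python 3.11.15 with pandas 2.3.3, numpy 2.4.6, scipy 1.17.1 and matplotlib 3.10.9. Exact permutation tests were two-sided and treat mice as independent although pairs share an array.

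Corrected values had the median net signal of 153 negative controls subtracted in each channel, spots then under that level removed, and the median deviation of a channel from the spot mean, in 20 by 5 blocks of the array, subtracted on the log2 scale. On data simulated for this comparison over 18578 genes, limma recovered 0 of 50 changes of 0.5, 30 of 100 of 1 and 33 of 50 of 2 log2 units, with 1 false call. The simulated noise was independent between samples, few genes were changed, and no effect of array, row or dye-by-group difference was put in. These numbers therefore do not measure recovery or false calls in the real data.

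Same-numbered samples of the 2 groups deviated together from their group means (correlations 0.40, 0.22, 0.19 and 0.56), so the replicate number was also fitted as a block. They share a dye, and within a dye the correlations were -0.02 (Cy3) and -0.15 (Cy5).

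The members and the 43 gene lists, with 1043 of 1055 entries on the array, were chosen with earlier results of these data known. Genes were named by rule, being 13 genes chosen by symbol, the largest rises and falls among genes past the threshold without overlap, up to 4 members of each list and 8 neighbors of *Tnfrsf12a* and *Fas* by adjusted p, and genes detected in 1 group only. Some genes under this rule are not reported here. *Grin1*, *Grin2a*, *Nrgn*, *Gng7*, *Ap2a2*, *Ywhaz*, *Itih3*, *Cebpd*, *Il18*, *Gadd45g*, *F3*, *Mpeg1*, the members that complete a list's count and the CA and dentate markers of the tissue check were added after their values were seen or as fixed checks. The methods of the study also name a composite criterion and a t-test per gene, which were run as alternatives.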

Additional observations from a re-analysis of the deposited data

Results flagged for a closer look

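Of 356 groups of 4 mice (178 named genes in Fn14ko and in MRL/+), 15 held a mouse whose gap to the nearest other was over 0.829 of the group's range, where chance gives about 1 in 20. In the Fn14ko group, the level in replicate 3 was 3.71 for *Birc2* (others 2.495 to 2.69), 1.92 for *Cyp46a1* (1.39 to 1.46), 4.06 for *Nr1d1* (1.74 to 2.07), 30.9 for *Stx1a* (17.3 to 19.3), 2.44 for *Eng* (1.10 to 1.25), 7.22 for *Syndig1l* (2.28 to 2.95) and 6.18 for *Bok* (3.18 to 3.66), and it was the highest of the 4 in each. Replicate 2 was at 1.13 for *Chrna2* (0.884 to 0.908) and 5.69 for *Apobec3* (4.37 to 4.58), and below the others at 4.71 for *Cpne7* (5.59 to 5.72). Replicate 1 was at 20.4 for *Ttr* (others 1.32 to 2.92) and 2.53 for *Maob* (0.835 to 1.04). In MRL/+, replicate 3 was at 5.26 for *Dusp1* (others 2.69 to 2.74) and 24.3 for *Npy* (19.6 to 20.3), and replicate 1 at 1.25 for *Srebf1* (0.965 to 1.01). Of the differences of these genes, those of *Birc2*, *Cyp46a1*, *Nr1d1*, *Chrna2* and *Apobec3* passed the limma test with each mouse left out in turn.

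The difference between groups also depended on the dye. A dye-by-group term passed an adjusted p under 0.05 in limma for 5896 of 18578 genes with background-subtracted signals, and for 0 of 8116 (1370 at an unadjusted p under 0.05) with corrected signals.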

How the results depend on the processing

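The count of 3687 genes past the limma threshold stayed within 1.5 times under normexp background, quantile or loess normalization, a 4-fold background filter, no trend, position correction alone, the methods' t-test at unadjusted p and Agilent's processed signal, though the last gave 899 higher and 2488 lower. It was 9535 with no filter, 1966 with spots well above background, 6372 with array as a random block, 6756 with a dye-by-group term added to it, 1017 without the dye covariate, 10940 in Cy5 samples alone, 0 in Cy3 samples alone (limma, 3116 with an unadjusted p under 0.05), 53 in the methods' t-test after Benjamini-Hochberg, 965 by their composite criterion, 1536 with negative controls subtracted, 1851 with corrected values, 5647 for probes in place of genes, and 859 to 5088 with 1 sample left out. With the replicate block, the count was 1299, the neighbors of *Tnfrsf12a* and *Fas* 77 (188 without it), the members of the gene lists 94 (217) and the cell type markers 34 (73). Neighbors counted 97 with spots well above background, 311 and 314 with the 2 array blocks, 63 without dye, 0 in Cy3 and 504 in Cy5, 0 by the t-test after adjustment (166 before it), 56 by the composite criterion, 80 and 93 with negative controls subtracted and with corrected values, 95 in a window of 10 Mb and 50 to 258 with 1 sample left out. In the same order, list members counted 342 with no filter, 126 with spots well above background, 79, 0, 474, 1, 72, 100, 109 and 66 to 262, and cell type markers 114, 46, 24, 0, 174, 0 (55 before adjustment), 21, 37, 38 and 21 to 85. The dye-by-group term passed in 794 genes with spots well above background, 749 with negative controls subtracted and 0 with corrected values. Genes detected in 1 group only were 4 over both dyes and 296 in Cy3. *Tnfrsf12a* missed the threshold with no filter (-0.54, adjusted p = 0.160), in Cy3 alone (-0.99, 0.249) and by the methods' t-test (-1.20, 0.189). Over the genes shared with the main values, other processing shifted the log2 differences by a median of 0.63 with no filter, -0.20 with spots well above background, -0.16 with the 4-fold filter, -0.22 with negative controls subtracted and 0.11 with position correction.

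Signs turned for 28 of 178 named genes. With no filter these were *Tnfsf12* 0.46, *Akt2* 0.62, *Bcl2* 0.011, *H2-DMa* 0.14, *Gabbr1* 0.072, *Npy* 0.035, *Grid1* 0.048, *Stx1a* 0.00081, *Vamp1* 0.058, *Nptx2* 0.13, *Fcgr3* 0.10 and *Lef1* 0.0032. With Agilent's processed signal they were *Akt1* -0.38, *Syt11* -0.044, *Glo1* -0.18, *Rac1* -0.0032, *Cdc37* -0.46, *Cd79a* 0.011, *Ppp1r1b* -0.086, *Vamp2* -0.50, *Pecam1* 0.35, *Chrm3* 0.19, *Fgfr3* -0.10, *Cx3cl1* -0.48 and *Gnas* -0.20, and with corrected values *Akt1* -0.29, *Ttr* -0.023, *Syt11* -0.021, *Glo1* -0.050, *Cdc37* -0.22, *Vamp2* -0.16, *Cx3cl1* -0.11 and *Gnas* -0.24. The other turned signs were *Tnfsf12* 0.16 (quantile) and 0.11 (Cy5), *Akt2* 0.015 (Cy3), 0.20 (position) and up to 0.092 with 1 sample left out (from -0.14), *Ttr* -0.14 (quantile), -0.17 (loess), -0.14 (well above background), -0.10 (4-fold filter), -0.95 (Cy5), -0.16 (negative controls) and -0.71 to 0.49 (1 sample left out), *Dnajc28* 0.11 (quantile) and 0.023 (loess), *Syne2* -0.040 (well above background), -0.21 (Cy5) and -0.17 to 0.10 (1 sample left out), *Syt11* -0.12 (quantile), -0.15 (loess), -0.0515 (well above background), -0.0083 (4-fold filter), -0.10 (Cy3), -0.15 (negative controls) and -0.041 to 0.29 (1 sample left out), and *Glo1* -0.15 (Cy3). The cause of these changes was not tested. Of 4749 values for the named genes under the alternatives, 3279 kept direction and side of the threshold, 1395 kept direction and lost it, and 11 gained it.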
